A study of Mus musculus with 3 samples.

Results

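The cells described here were capillary endothelial cells (ECs) of the mouse lung that held RNA of Aplnr, the receptor for the peptide apelin, or Kit, the receptor tyrosine kinase for stem cell factor, together with little or no RNA of the Notch ligand Dll4. They were chosen by their own counts of unique molecular identifiers (UMIs), each of which stands for 1 captured RNA molecule. A cell passed the endothelial gate with at least 4 UMIs of the junction genes Cdh5 and Cldn5, no UMI of the leukocyte gene Ptprc, at most 5 UMIs of the collagen genes Col1a1 and Col1a2, and less than 2% of its UMIs from the surfactant gene Sftpc. A Dll4-low cell was a cell of this gate with at least 2 UMIs of Aplnr and Kit, at most 1 UMI of Ednrb, Apln, and Fibin, at most 1 UMI of Gja5, at most 1 UMI of Slc6a2 and Nr2f2, and at most 1 UMI of Dll4. There were 231 Dll4-low cells among 883 cells of the endothelial gate and 7642 lung cells that were kept, which showed 200 or more genes and drew no more than 20% of their UMIs from mitochondrial genes.

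Whole lungs of 3 wild-type C57BL/6 mice were dissociated at P14 after the pups had lived in room air (RA) since day of life 1, and scRNA-Seq libraries were made from each lung with the 10x 3′ v3 chemistry. All 3 mice, numbered 2, 3, and 4, belonged to a single condition, so the comparisons below are between groups of cells within the same mice. The deposited libraries held 23744510, 22476491, and 25192427 UMIs in 3034, 3135, and 3475 cells.

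Lung capillaries hold a pair of EC kinds. Car4-type cells, also called aerocytes, carry carbonic anhydrase 4 and endothelin receptor B and lie against the gas exchange surface, and general capillary cells carry Aplnr, Kit, and Gpihbp1 and can act as progenitors of both kinds. Dll4 is a membrane ligand that activates Notch receptors on neighboring cells. In developing vessels it is highest in arterial ECs and in sprouting tip cells, and cells that receive the signal turn on the transcription factors Hey1 and Hes1.

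The Dll4-low cells made up 99 of 340, 44 of 206, and 88 of 337 cells of the endothelial gate in mice 2, 3, and 4. These were 29.1% (exact 95% binomial interval 24.3 to 34.3), 21.4% (16.0 to 27.6), and 26.1% (21.5 to 31.1), and the intervals overlapped. They were compared with 127 Dll4-high cells (51, 28, and 48 per mouse) that met the same gates but held at least 2 Dll4 UMIs. Within the endothelial gate, 94 arterial cells (38, 21, and 35) had at least 2 UMIs of the gap junction gene Gja5. A further 122 venous cells (42, 36, and 44) had at least 2 UMIs of Slc6a2 and Nr2f2, and 172 Car4-type cells (58, 40, and 74) had at least 2 UMIs of Ednrb, Apln, and Fibin. Cells without a Cdh5 or Cldn5 UMI gave 5273 non-endothelial cells, of which 1099 were epithelial, 1334 stromal, and 2840 immune. A cell share and a dissociation yield cannot be told apart, so these numbers describe the libraries.

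Dll4-low cells held a median of 6797 UMIs (525 to 20045) and 2914 genes, below the medians of 8421 UMIs in Dll4-high, 8392 in arterial, 8350 in venous, and 8169.5 in Car4-type cells. Mitochondrial genes gave a median of 6.97% of their UMIs. Levels are given in CPM, the UMIs of a gene in the cells of a group in 1 mouse scaled to a common total (counts per 1e6 UMIs). The 3′ chemistry tags each transcript once, so levels were not scaled by gene length.

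The markers of this capillary type were present in the cells. Aplnr (chr2:85136225-85139923, plus strand, GRCm38) stood at 764, 838, and 799 CPM in mice 2, 3, and 4 (mean 800 ± 37.1, SD, n = 3), and Kit (chr5:75574916-75656722, plus strand) at 964, 1034, and 988 CPM (995 ± 35.4). Both genes chose the cells, so these levels are a description. They varied little between the mice, and 211 of the 231 cells (91.3%, exact 95% interval 86.9 to 94.6) held UMIs of both, whereas 8 held Aplnr alone and 12 Kit alone. At the edge of the gate, 10 Dll4-low cells held exactly 2 UMIs of the pair (median depth 2184.5 UMIs), and 12 cells with 1 UMI stayed just outside (median depth 1701).

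Gpihbp1 and Cd93 were not used by the gates. Gpihbp1 (chr15:75596628-75599481, plus strand) anchors lipoprotein lipase on the luminal side of capillaries and reached 970, 947, and 833 CPM in Dll4-low cells (917 ± 73.0) against 354, 255, and 291 CPM in arterial cells. Cd93 (chr2:148436640-148443563, minus strand), a membrane glycoprotein of ECs, reached 2807, 3014, and 2854 CPM (2892 ± 109) and ranked at place 17 among all genes of these cells. The other markers ranked at place 108 (Kit), 123 (Gpihbp1), and 150 (Aplnr). When cells were thinned to 2000 UMIs, with shallower cells left out (10 of 231 Dll4-low, 1 of 94 arterial, 28 of 172 Car4-type, and 56 of 1719 B cells, and no Dll4-high or venous cell), 77.4% of Dll4-low cells were expected to keep a Gpihbp1 UMI against 0.296% of B cells, a lineage that should lack the gene (93.7% against 0.605% unthinned, median depths 6797 and 4072 UMIs). Among thinned ECs of the other gates a Gpihbp1 UMI was kept by 28.6% of arterial, 43.0% of Car4-type, and 64.9% of venous cells, so the gene set Dll4-low cells apart from arterial cells more than from venous cells. A Cd93 UMI was kept by 97.7% of Dll4-low, 92.0% of arterial, 91.8% of venous, and 57.8% of Car4-type cells, against 9.32% of B cells. The Dll4-low cells thus held RNA of both markers. The endothelial gate chose these cells for junction genes of ECs, so their contrast with B cells was in part fixed by the gate. These shares describe cells so chosen and do not test their identity as ECs.

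Genes that define the neighboring types were low, in part because the gates required it. The gated genes were at 2.64 CPM (Gja5), 10.9 CPM (Ednrb), 9.87 CPM (Apln), 2.60 CPM (Fibin), and 26.4 CPM (Nr2f2), and Slc6a2 had no UMI. Car4, which no gate used, was at 82.4, 80.2, and 95.3 CPM in Dll4-low cells and at 671, 1398, and 869 CPM in Car4-type cells. Markers of other lineages were scarce as well. Summed over 11 epithelial genes the level was 193 ± 38.4 CPM, with the club cell gene Scgb1a1 as the most abundant (92.1 CPM), with Krt8 and Krt18 at 0. Summed over 10 stromal genes it was 58.8 CPM, over 10 immune genes 58.3 CPM, over 5 hemoglobin and heme genes 4.19 CPM, and over 4 platelet genes 17.6 CPM. Of 6 lymphatic genes, Prox1, Reln, and Pdpn had no UMI, and Flt4, which blood capillaries also express, gave 92.2 of the summed 94.3 CPM.

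**Figure D1:**
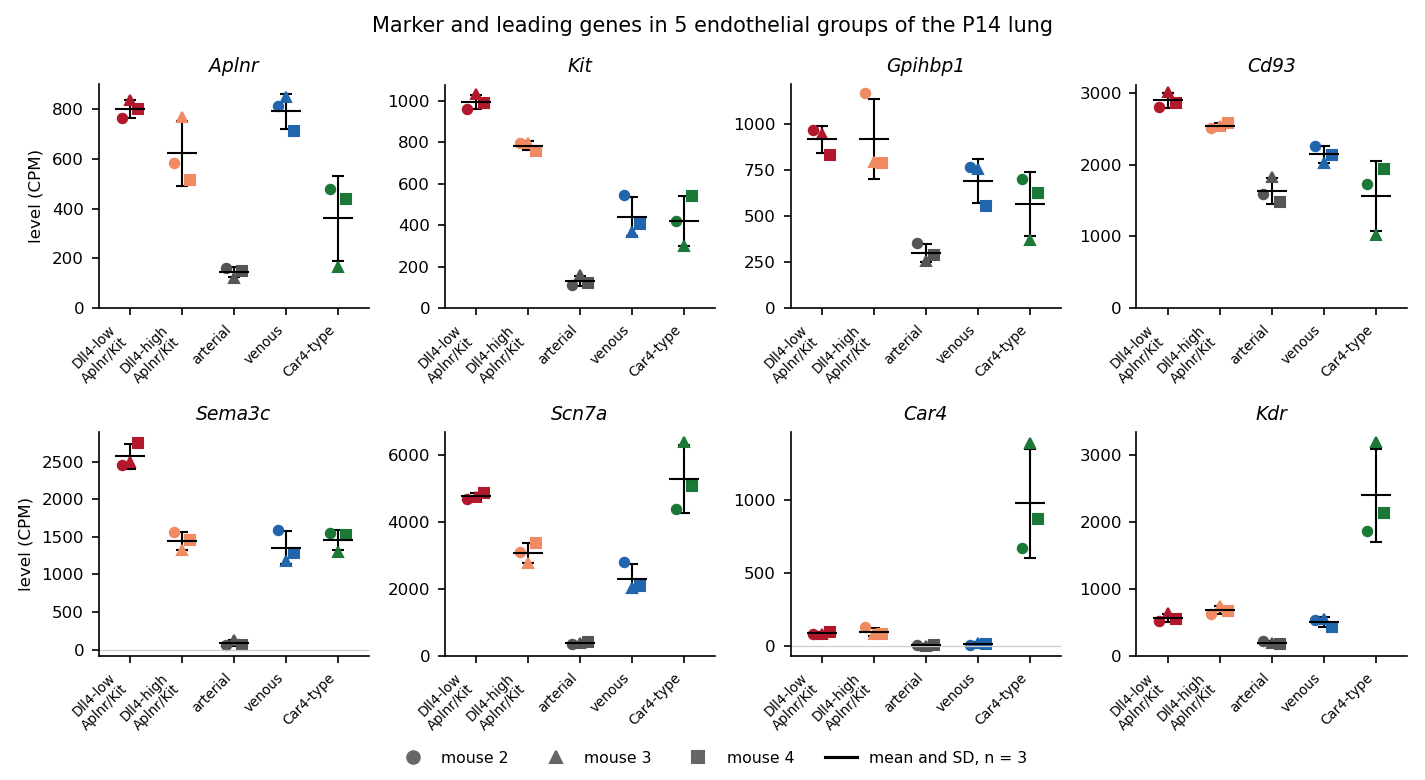
Levels in CPM of Aplnr, Kit, Gpihbp1, Cd93, Sema3c, Scn7a, Car4, and Kdr in the 5 groups of ECs, with a point for each of the 3 mice and the mean and SD as bar and whisker. Aplnr and Kit chose the Dll4-low and Dll4-high cells, so their higher level there follows in part from the gates, Gpihbp1 averages 917 and 918 CPM in the Dll4-low and Dll4-high cells, and Car4 and Kdr stand out in the Car4-type cells.

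All comparisons below used UMI counts summed per mouse and group and edgeR's quasi-likelihood test over 10858 genes that the gates did not use, with Benjamini-Hochberg adjustment and a threshold of 0.05. Because the cells were chosen by measured UMIs of gate genes, a gene that goes with a gate gene from cell to cell is expected to differ, and the tests describe cells so chosen. With 3 mice the p-values rest on the spread of the sums around their group means, taken over all groups fitted together. Sums of the same mouse were treated as independent in this fit, so the p-values do not measure the spread of the compared groups alone. Log2 fold changes are given with their SE and are positive where Dll4-low cells were higher. The leading genes of each comparison were named only where the mice of the compared groups did not overlap. Their lack of overlap is therefore part of the choice and no separate result.

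The comparison with Dll4-high cells asked what else differed between capillary cells that were alike by every gate except Dll4. Few genes passed the test. Dll4-low cells were higher in 16 genes (0.147% of those tested) and lower in 8 (0.0737%), 0.221% in all, and 780 genes had an unadjusted p under 0.05. The counts depended on the processing, with 29 higher and 22 lower under DESeq2 and 8 and 4 with at most 10% mitochondrial UMIs. The vascular growth factor gene Vegfc, the semaphorin Sema3c, the taurine transporter Slc6a6, and the protease genes Prcp and Prss23 were higher, and the Notch target Hey1, the arterial ephrin ligand Efnb2, and the oncostatin M receptor subunit Osmr were lower. All 24 genes went the same way in 3 of 3 mice with no overlap between the groups. The same sums gave the calls, so this adds no separate support. The share of all tested genes without overlap is not given here. The calls were less stable than the directions. Without mouse 2, 3, or 4 in turn, 7, 12, and 3 of the 24 genes kept their call. With at most 10% mitochondrial UMIs 12 kept it. All 24 kept their direction in each of these alternatives.

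Vegfc (chr8:54077606-54187096, plus strand), a ligand of the receptor encoded by Flt4, had the largest change among the genes chosen by the fixed rule. It was at 92.7, 96.3, and 63.0 CPM in Dll4-low cells and at 23.5, 3.12, and 7.28 CPM in Dll4-high cells (log2 fold change 2.59, SE 0.34, adjusted p = 9.79e-05 by edgeR). The groups did not overlap, with a lowest Dll4-low value of 63.0 CPM and a highest Dll4-high value of 23.5 CPM. The Dll4-high levels rest on few UMIs, 20 in all against 132 in Dll4-low cells. A Vegfc UMI was found in 52 of 231 Dll4-low cells (22.5%), and the tenth of cells richest in it held 74.2% of the UMIs. At a mean of 0.571 UMIs per cell, a cell without a Vegfc UMI is not shown to lack its RNA. Vegfc kept its call under all 18 alternatives run, with log2 fold changes from 2.22 to 3.81.

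Sema3c, a secreted guidance factor that ranked at place 23 in Dll4-low cells, was at 2456, 2494, and 2752 CPM against 1560, 1321, and 1457 CPM (0.85, SE 0.14, adjusted p = 0.00256 by edgeR). Slc6a6 was at 694, 671, and 846 CPM against 373, 337, and 432 CPM (0.98, SE 0.15, adjusted p = 0.000982). Prcp, a carboxypeptidase that cleaves small vasoactive peptides, was at 562, 533, and 581 CPM against 299, 350, and 255 CPM (0.93, SE 0.15, adjusted p = 0.00171). These 3 genes were abundant in both groups, and each value in Dll4-low cells was above every value in Dll4-high cells. Prss23, a serine protease found in venous ECs, was lower in level at 94.2, 106, and 100 CPM against 48.4, 46.9, and 53.4 CPM (1.03, SE 0.20, adjusted p = 0.0136). Entpd1, the ectonucleotidase CD39 that breaks down extracellular ATP, was at 88.3, 61.0, and 82.4 CPM against 41.1, 40.6, and 36.4 CPM (1.05, SE 0.22, adjusted p = 0.0257).

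A further 5 genes named by the rule were also higher in Dll4-low cells. They were Edil3, an integrin-binding matrix protein (1.24), the LIM domain gene Fhl1 (1.24), the deubiquitinase Usp32 (1.09), Ogfrl1 (1.00), and Specc1 (0.92), with means between 76.6 and 117 CPM. Fhl1 lost its call when the mouse was a block in the fit (adjusted p = 0.0504 by edgeR). The sodium channel Scn7a was chosen for mention after its values were seen, because it ranked at place 9 in Dll4-low cells. It was at 4682, 4741, and 4876 CPM against 3097, 2774, and 3377 CPM (0.65, SE 0.13, adjusted p = 0.0213 by edgeR). A further 3 called genes, also listed after their values were seen, were Crtc1 (1.76, mean 26.1 CPM), 1810011O10Rik (0.87), and Klhl5 (0.54).

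Hey1 (chr3:8663359-8667256, minus strand), a transcriptional repressor induced by Notch, was at 103, 135, and 121 CPM in Dll4-low cells and at 274, 306, and 333 CPM in Dll4-high cells (-1.34, SE 0.22, adjusted p = 0.00352 by edgeR). Efnb2 (chr8:8617434-8661242, minus strand), which overlaps 3 annotated genes on the same strand, was at 527, 469, and 449 CPM against 717, 831, and 1068 CPM (-0.82, SE 0.17, adjusted p = 0.0401). Osmr was at 32.4, 22.5, and 17.8 CPM against 69.0, 68.7, and 92.3 CPM (-1.58, SE 0.33, adjusted p = 0.0257). For each of these genes all 3 Dll4-low values lay below all 3 Dll4-high values. Hey1 kept its call under all 18 alternatives (-1.98 to -1.29), whereas Efnb2 lost it under 6 and Osmr under 4, with the direction kept. The other lower genes were Cdc42ep2 (-1.53), an effector of the GTPase Cdc42, Ivns1abp (-1.22, adjusted p = 0.0911 with the mouse as a block), Cd200 (-0.65), a ligand of an inhibitory myeloid receptor, the chromatin gene Dek (-0.64), and the splicing gene Snrpb (-0.60).

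**Figure D2:**
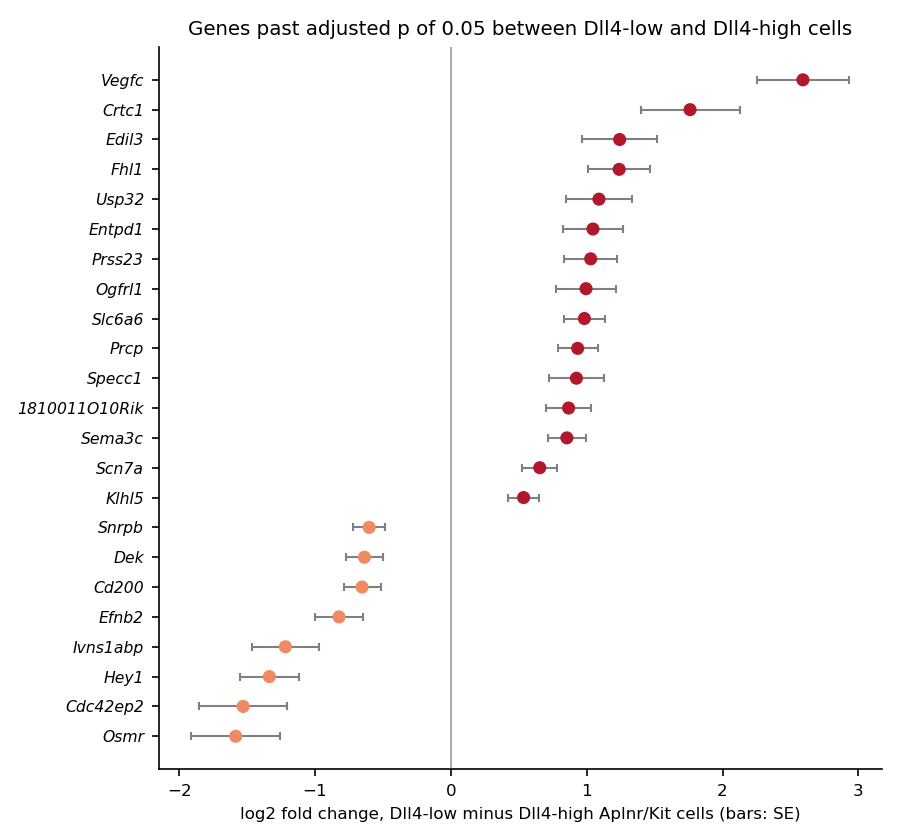
Log2 fold change with SE of 23 of the 24 genes called between Dll4-low and Dll4-high cells, positive where Dll4-low cells were higher, from counts summed in 3 mice. Among the genes shown, Vegfc (2.59) is the highest and Osmr (-1.58) the lowest.

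The rest of the Notch genes differed less than their spread allowed to call. Of 28 tested Notch genes besides Dll4, 2 were lower (Hey1 and Efnb2) and none was higher, with a median log2 fold change of 0.011 against 0 over all genes. Notch1 was at 355, 456, and 354 CPM against 395, 481, and 534 CPM (-0.26, SE 0.12, adjusted p = 0.672 by edgeR), and Notch4 at 191, 247, and 191 CPM against 232, 250, and 260 CPM (-0.23, SE 0.15, adjusted p = 0.799). The target Hes1 was at 199, 170, and 192 CPM against 172, 212, and 177 CPM (0.07, SE 0.19, adjusted p = 1). Jag1, another Notch ligand, was at 51.5, 61.0, and 77.5 CPM against 32.3, 37.5, and 36.4 CPM (0.90, SE 0.28, adjusted p = 0.265). For Hes1 the groups overlapped, and for Jag1 they did not but the test was not passed.

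The capillary identity genes were likewise close. Of 15 tested general capillary genes Sema3c alone was called, and the median was 0.014. Gpihbp1 was at 1169, 797, and 789 CPM in Dll4-high cells (918 ± 217), on both sides of the Dll4-low values (log2 fold change 0.01, SE 0.26, adjusted p = 1 by edgeR). Among 18 arterial genes Vegfc was higher and Hey1 and Efnb2 were lower (median -0.75), and among 13 venous genes Vegfc and Prss23 were higher (median 0.59). Vegfc is in both lists, so it counts on both sides. The arterial chemokine Cxcl12 was at 571, 295, and 452 CPM against 670, 672, and 1000 CPM (-0.77, SE 0.31, adjusted p = 0.562), and its receptor Cxcr4 at 121, 135, and 58.1 CPM against 266, 397, and 449 CPM (-1.82, SE 0.38, adjusted p = 0.0731). Neither passed the test, although the groups did not overlap for either gene.

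Dll4 itself (chr2:119325784-119335962, plus strand, with the annotated gene Gm14207 on the opposite strand) chose the cells. It was at 55.9, 61.0, and 51.7 CPM in Dll4-low cells, at 310, 341, and 427 CPM in Dll4-high cells, and at 556, 451, and 520 CPM in arterial cells. Among cells that met the other gates, 142 held no Dll4 UMI, 89 held 1, and just past the threshold 44 held 2, 31 held 3, and 52 held 4 or more. Over the pooled cells depth rose along this order, with medians of 6571, 7011, 7434.5, 9313, and 10295.5 UMIs. Within mice it rose throughout in mouse 4 alone (6047 to 8412 UMIs), and in mice 2 and 3 it went from 6836 to 16328.5 and from 7718 to 9532 UMIs with drops between. Its part in the differences was not tested beyond the alternative that kept cells of 4000 to 16000 UMIs, where 23 genes were higher and 23 lower. Of the 24 genes called above, 23 were tested in that alternative. All 23 kept their direction and 15 kept their call.

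Of 11 called genes followed across these bins, the mean levels of 7 rose or fell from bin to bin throughout (Hey1, Efnb2, Osmr, Vegfc, Sema3c, Slc6a6, and Scn7a), and those of Prcp, Prss23, Cd200, and Edil3 did not. None of the 7 kept its order in every single mouse. In mouse 3, for example, Hey1 was at 225 CPM with 1 Dll4 UMI and at 217 CPM with 2 to 3. Hey1 averaged 74.7 CPM in cells with 0 Dll4 UMIs, 187 CPM with 1, 238 CPM with 2 to 3, and 372 CPM with 4 or more. Efnb2 averaged 459, 516, 788, and 957 CPM in the same order, and Vegfc 104, 54.5, 13.6, and 8.58 CPM. Sema3c averaged 2822, 2178, 1575, and 1330 CPM. Prcp averaged 526, 607, 305, and 295 CPM, and Prss23 105, 91.1, 41.6, and 57.6 CPM, so that their means differed across the gate without an order on each side of it. Gpihbp1, which was not called, was at 909, 929, 877, and 960 CPM. These values describe the cells that were also compared above and add no separate test.

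**Figure D3:**
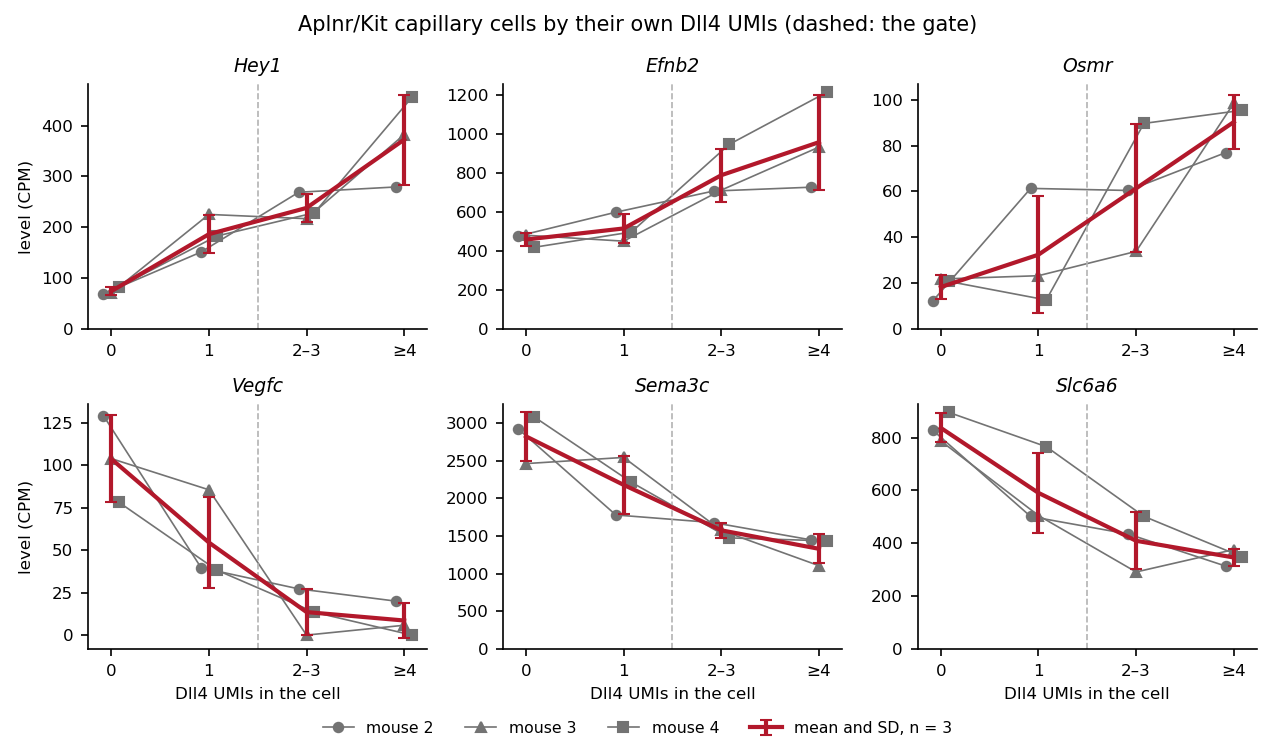
Levels in CPM of Hey1, Efnb2, Osmr, Vegfc, Sema3c, and Slc6a6 in cells with 0, 1, 2 to 3, and 4 or more Dll4 UMIs, with a gray line for each of the 3 mice, their mean and SD in red, and a dashed line at the gate between Dll4-low and Dll4-high cells. Mean Hey1 goes from 74.7 to 372 CPM and mean Vegfc from 104 to 8.58 CPM over the 4 bins.

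In each mouse a smaller share of Dll4-low than of Dll4-high cells held RNA of dividing-cell genes, a choice of genes made after values were seen. At least 3 UMIs of Top2a, Mki67, Cdk1, and Birc5 were held by 5 of 99, 3 of 44, and 4 of 88 Dll4-low cells (together 5.19%, exact 95% interval 2.71 to 8.90) and by 11 of 51, 3 of 28, and 6 of 48 Dll4-high cells (15.7%, 9.89 to 23.3). The intervals cover counting error within the libraries only, and the Dll4-low cells were shallower. Among cells thinned to 2000 UMIs, which left out the 10 shallower Dll4-low cells and no Dll4-high cell, a Top2a UMI was kept by 3.66% ± 1.45 (SD, n = 3 mice) of Dll4-low and 8.96% ± 3.84 of Dll4-high cells, against 1.78% of B cells, and a Mki67 UMI by 4.53% ± 0.49 and 10.7% ± 4.34, against 2.28% of B cells. Among the cells of at least 2000 UMIs, the mean share over the mice was thus smaller in Dll4-low cells after thinning as well. The groups were split by their Dll4 UMIs before thinning, so thinning does not undo a link between depth and the gate. The part of depth in this difference was not tested. None of 26 tested cell cycle genes passed the test between the 2 groups (median -0.90 against 0), and Top2a was at 83.9, 138, and 51.7 CPM against 263, 128, and 141 CPM, which overlapped in range. When cells with at least 3 such UMIs were left out of every group, an alternative added after seeing the data, 6 genes were higher and 13 lower, 12 of the 24 genes kept their call and all 24 their direction. The count also rested on single mice. Without mouse 2 it was 5 higher and 7 lower, without mouse 3 it was 12 and 7, and without mouse 4 it was 2 and 1.

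The comparison with arterial ECs asked how far the Dll4-low cells stood from the vessel type richest in Dll4. Dll4-low cells were higher in 709 genes (6.53% of those tested) and lower in 833 (7.67%), 14.2% in all. They carried far more Sema3c and more of the collagen IV genes Col4a1 and Col4a2, and 16 of 18 arterial genes were lower. The leading higher genes were Sema5a, Sema3c, the cell cycle regulator Rgcc, Zfp462, the potassium channel Kcnh1, Ogfrl1, carbonic anhydrase genes Car14 and Car4, Edil3, and the tetraspanin Tspan8. Sema5a had 80 UMIs in Dll4-low cells and none in arterial cells, at least 16.6-fold higher against a floor of 3 UMIs over the group. Sema3c was at 66.3, 130, and 67.0 CPM in arterial cells (log2 fold change 4.86, SE 0.18, adjusted p = 8.73e-19 by edgeR), and Car4 at 8.29, 0, and 7.73 CPM (3.78, SE 0.76, adjusted p = 0.00152).

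The 10 leading lower genes had no UMI in Dll4-low cells. They were the Wnt antagonists Sfrp1 and Dkk2, the protease Htra1, the adhesion molecule P-selectin (Selp), the ephrin Efna5, Gcnt1, the potassium channel genes Kcne3 and Kcnn4, the chemerin receptor Cmklr1, and Fhdc1. Against the floor of 3 UMIs, Sfrp1 was at least 185-fold lower, Htra1 at least 123-fold, Dkk2 at least 76.9-fold, and Fhdc1 at least 33.1-fold. Vwf, the clotting glycoprotein of larger vessels, was at 55.9, 12.8, and 43.6 CPM against 3521, 3336, and 3213 CPM (-6.40, SE 0.49, adjusted p = 3.24e-08 by edgeR). The tyrosine kinase gene Bmx had 3 UMIs in Dll4-low and 320 in arterial cells, a ratio of 171 (exact 95% counting interval 58.0 to 833). The separation of the 10 leading genes in every mouse follows from the rule that named them.

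Of the 18 arterial genes 16 were lower in Dll4-low cells and Vegfc was higher (median -2.37). Hey1 was at 503, 404, and 371 CPM in arterial cells (-1.93, SE 0.21), Efnb2 at 1650, 1589, and 1641 CPM (-1.82, SE 0.17), and Cxcl12 at 2471, 2539, and 2633 CPM (-2.58, SE 0.31). The gap junction gene Gja4, which no gate used, was at 328, 218, and 283 CPM against 801, 714, and 624 CPM (-1.40, SE 0.22). For these genes no Dll4-low value reached the lowest arterial value. Of 28 Notch genes 11 were lower, among them Notch1 (-1.02), Notch4 (-0.60), Jag1 (-1.47), the feedback inhibitor Nrarp (-1.97), and Hey2, with 2 UMIs against 99 (ratio 79.3, interval 21.4 to 664). The 3 that were higher were the fringe glycosyltransferase Lfng (1.53), the Notch inhibitor Numb (1.40), and Aph1a (0.99), which overlaps Car14.

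Among transcription factors 14 of 34 were higher and 5 lower. Ets1 (1.45) and Ets2 (1.69), which drive endothelial genes, and Foxf1 (1.14), needed for the lung capillary bed, were higher, and Mecom (-4.96) and Gata6 (-3.12) were lower. Gata6 was at 57.4, 64.2, and 61.4 CPM against 489, 432, and 575 CPM, a gap far larger than the spread of either group. Of 15 general capillary genes 7 were higher, including Gpihbp1 (1.53), Emcn (1.86), and Lpl (1.57), and 4 were lower, including Ptprb (-1.37). Of 15 Car4-type genes 7 were higher and 2 lower, with Kdr, the main VEGF receptor, at 518, 639, and 559 CPM against 224, 196, and 173 CPM (1.45, SE 0.21, adjusted p = 1.24e-05 by edgeR).

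The matrix and vascular tone genes split. Of 21 basement membrane genes 5 were higher, led in abundance by Col4a1 (3684, 3605, and 4091 CPM against 804, 918, and 582 CPM) and Col4a2 (2.22), and 7 were lower, including Mgp, an inhibitor of calcification (-8.20). Elastin (Eln), counted among the arterial genes, was at 962, 1066, and 817 CPM against 8620, 8838, and 7676 CPM (-3.22). Of 14 coagulation genes Thbd (2.20), Tfpi (1.67), and S100a10 (1.20) were higher and Vwf, Plat (-2.63), Procr (-3.31), and F2rl1 were lower, so anticoagulant genes were on both sides, with Thbd and Tfpi higher and Procr lower. Of 19 vasoactive genes 4 were higher, among them the beta-1 adrenergic receptor Adrb1 (3.01), and 7 lower, among them Nos3, which makes nitric oxide (-1.81), and Edn1, the endothelin precursor (-2.16). Of 15 BMP pathway genes 3 were higher and 7 lower, including Smad6 (-2.01) and Id1 (-1.47).

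In the arterial gate 37 of 94 cells (39.4%) also held at least 2 UMIs of Aplnr and Kit. Without mouse 4 the counts fell to 379 higher and 497 lower genes.

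The comparison with venous ECs gave 220 higher genes (2.03% of those tested) and 413 lower genes (3.8%), 5.83% in all. Of the 13 venous genes 11 were lower in Dll4-low cells, whereas the 18 arterial genes were split, with 6 higher and 7 lower, and of 28 Notch genes 4 were higher and 2 lower. The leading higher genes were Adam23, Car4, Cxcr4, Hey1, Gprin3, Prr18, the lipid droplet gene Hilpda, Rcsd1, Cxcl12, and the proprotein convertase Pcsk5. Cxcr4 (2.53) lost its call with the mouse as a block (adjusted p = 0.0682 by edgeR). Adam23 was at 115, 73.8, and 115 CPM against 13.7, 2.58, and 4.39 CPM (log2 fold change 3.78, SE 0.42, adjusted p = 2.24e-07 by edgeR). Hey1 was at 39.0, 20.7, and 6.58 CPM in venous cells (2.31, SE 0.34, adjusted p = 4.98e-05), and Efnb2 at 260, 176, and 215 CPM (1.10, SE 0.19, adjusted p = 0.000302). Dll4-low cells thus lay between venous and arterial cells in both genes, with no overlap on either side.

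The leading lower genes included Htra1, the neural adhesion gene Ncam1, Cpe, Tmem45a, Fgl2, Moxd1, the metalloproteinase Mmp16, Myof, and Cytl1. Htra1 (at least 41.2-fold lower), Ncam1 (at least 37.2-fold), and Tmem45a (at least 26.5-fold) had no UMI in Dll4-low cells. Cpe had 1 UMI against 728 (ratio 865, interval 155 to 34210). Fgl2 was at 1.47, 6.42, and 1.62 CPM against 328, 357, and 329 CPM (-7.09, SE 0.37, adjusted p = 2.95e-15 by edgeR). Of 19 immediate early genes 4 were lower, with Fos at 1.47, 9.63, and 9.69 CPM against 23.4, 59.4, and 175 CPM (-3.81) and its relative Fosb (-3.76). Ncam1, Fos, and Fosb were no longer lower when venous cells with at least 2 UMIs of Aplnr and Kit were left out, which left 7, 3, and 3 venous cells in mice 2, 3, and 4, of which the 7 of mouse 2 alone met the minimum of 5 cells per sum.

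Of 13 venous genes besides the gate genes, 11 were lower in Dll4-low cells and none was higher (median -3.20). Prss23 was at 562, 581, and 568 CPM in venous cells (-2.57, SE 0.14, adjusted p = 2.95e-15 by edgeR). The chemokine-scavenging receptor Ackr3 was at 73.6, 38.5, and 66.2 CPM against 431, 537, and 724 CPM (-3.20, SE 0.21), and Nrp2, a co-receptor for VEGF-C, at 14.7, 19.3, and 17.8 CPM against 207, 282, and 162 CPM (-3.72, SE 0.39). Vegfc was at 244, 207, and 200 CPM in venous cells (-1.44, SE 0.21, adjusted p = 9.98e-06). Vegfc and Prss23, which were higher in Dll4-low than in Dll4-high cells, were thus still below the venous cells.

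Of 18 arterial genes 6 were higher than in venous cells, among them Sema3g (1.63), Sox17 (0.92), and Gja4 (0.92), and 7 were lower, among them the elastic fiber genes Eln (-3.73), Fbln5 (-5.25), and Fbln2 (-2.18), which venous cells of this gate also held. Of 15 general capillary genes 6 were higher, including Sema3c (0.87), Clec1a (1.18), and Hilpda (1.91), and none was lower. The fatty acid uptake genes Cd36 (0.80) and Lpl (0.86) were higher and Fabp5 was lower (-2.64).

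Most venous cells, 109 of 122 (89.3%), also met the Aplnr and Kit threshold, so this gate held cells with capillary receptors. Lymphatic genes summed to 1026, 64.6, and 54.8 CPM in the venous cells of mice 2, 3, and 4, against 89.8, 116, and 77.5 CPM in Dll4-low cells, and 5 of the 6 venous cells with at least 2 UMIs of lymphatic genes other than Flt4 were from mouse 2. Without those 6 cells, an alternative added after seeing the data, 205 genes were higher and 403 lower. The counts were 145 higher without mouse 2 and 61 higher and 158 lower without mouse 4.

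**Figure D4:**
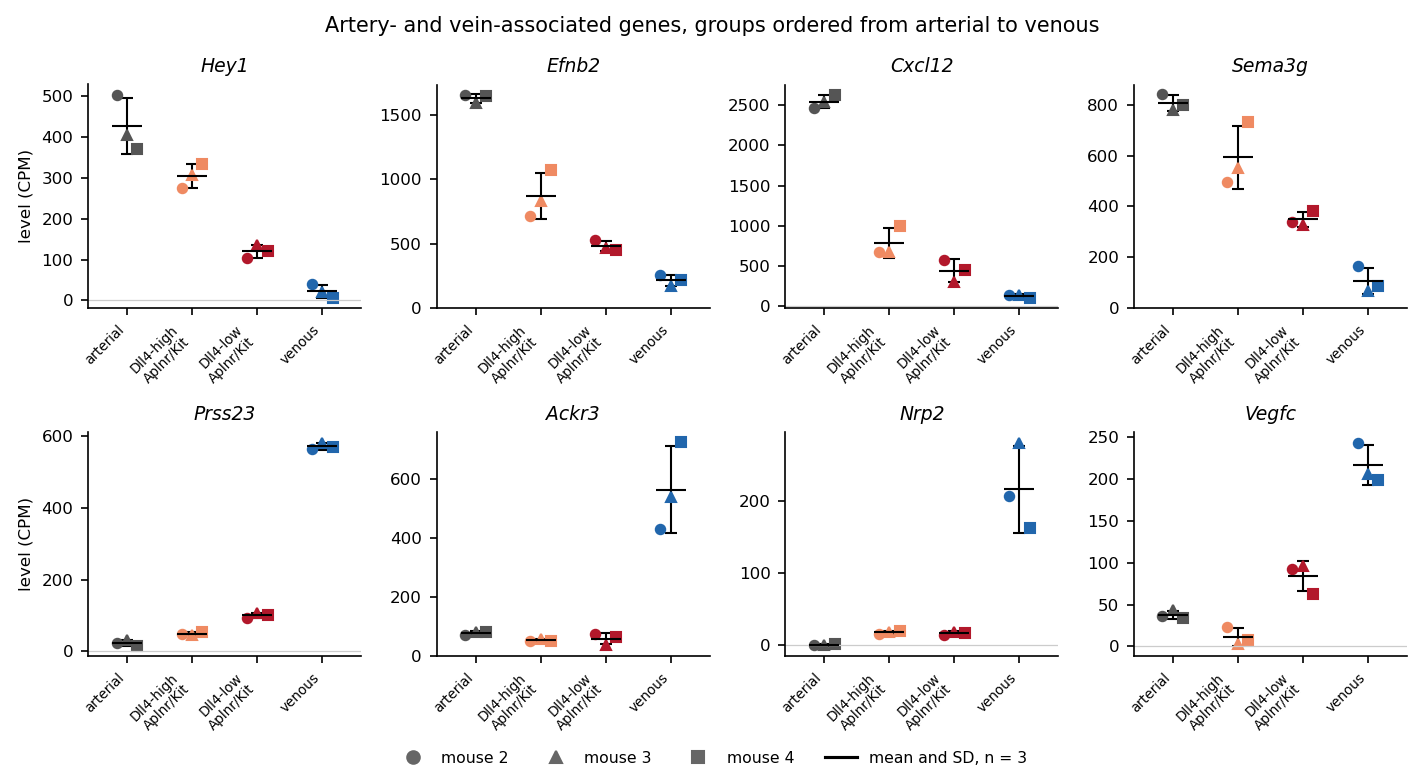
Levels in CPM of Hey1, Efnb2, Cxcl12, Sema3g, Prss23, Ackr3, Nrp2, and Vegfc in arterial, Dll4-high, Dll4-low, and venous cells, with a point for each of the 3 mice and the mean and SD. Mean Hey1 falls from 426 CPM in arterial cells through 304 and 120 CPM to 22.1 CPM in venous cells, and Prss23 is at 570 CPM in venous cells against 100 CPM in Dll4-low cells.

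The comparison with Car4-type cells, the other capillary kind, gave 188 higher genes (1.73% of those tested) and 317 lower genes (2.92%), 4.65% in all. Dll4-low cells were lower in nearly all genes of the Car4-type list and higher in part of the general capillary list. The leading higher genes were the interferon-induced GTPase genes Iigp1 and Gbp2, Vegfc, Car14, the matrix protease Adamts1, Wfdc1, Specc1, Fam181b, Slc6a6, and the neurotrophin receptor Ntrk2. Adamts1 was at 514, 597, and 594 CPM against 194, 99.5, and 294 CPM (log2 fold change 1.45, SE 0.31, adjusted p = 0.00797 by edgeR). Slc6a6 was at 288, 287, and 365 CPM in Car4-type cells (1.22, SE 0.15, adjusted p = 7.68e-07), and Vegfc at 18.7, 27.6, and 33.7 CPM (1.60, SE 0.29, adjusted p = 0.000294). Iigp1 was at 36.8, 57.8, and 149 CPM against 23.8, 11.1, and 33.7 CPM (1.73, SE 0.46, adjusted p = 0.0341). A single cell of mouse 4 held 63 of the 135 Iigp1 UMIs of Dll4-low cells, and a single cell of mouse 4 held 73 of the 205 Gbp2 UMIs. Without mouse 4 the log2 fold change of Iigp1 was 1.22 and its call was lost, and that of Gbp2 was 1.47 with the call kept.

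The leading lower genes included the integrin Itgb5, Frrs1, the phagocytosis checkpoint receptor Sirpa, the sulfotransferase genes Chst2 and Chst1, AW112010, the cell cycle inhibitor Cdkn2b, Egflam, and the transcription factor Tbx2. Itgb5 had 2 UMIs against 202, a ratio of 97.9 (interval 26.8 to 814). Sirpa was at 2.94, 0, and 11.3 CPM against 238, 409, and 281 CPM (-5.74, SE 0.34, adjusted p = 1.51e-12 by edgeR), and Tbx2 at 35.3, 44.9, and 29.1 CPM against 478, 812, and 537 CPM (-4.10, SE 0.31, adjusted p = 5.84e-08). Each was lower in every mouse, which the rule for leading genes required.

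Of 15 Car4-type genes besides the gate genes, 13 were lower and Nckap5 was higher (0.57), with a median of -2.65. Kdr was at 1874, 3191, and 2142 CPM in Car4-type cells (-2.08, SE 0.19, adjusted p = 5.5e-08 by edgeR), and its co-receptor Nrp1 at 1045, 1136, and 1205 CPM against 2108, 3332, and 2236 CPM (-1.18, SE 0.15). Kitl, the ligand of Kit, was at 365, 491, and 488 CPM against 1232, 2365, and 1631 CPM (-1.97, SE 0.18). Every Car4-type value was above every Dll4-low value for these 3 genes. Of 15 general capillary genes 6 were higher and none lower (median 0.64), namely Cd93 (0.87), Ptprb (0.81), Sema3c (0.81), the angiopoietin receptor Tek (0.78), Itga1 (0.76), and Clec14a (0.64). Gpihbp1 was at 700, 370, and 626 CPM in Car4-type cells, below all Dll4-low values, and did not pass the test (0.67, SE 0.26, adjusted p = 0.2).

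Among leukocyte adhesion genes none of 14 was higher and 4 were lower, among them Icam1 (-1.86) and Icam2 (-0.84). Of 34 transcription factors 6 were higher, including Sox17 (0.94) and Foxp1 (0.78), and 5 lower, including Meox1 (-2.13) and Tbx3 (-0.84). None of 18 arterial or 13 venous genes was lower, while 2 arterial and 3 venous genes were higher, with Vegfc in both lists.

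In the Car4-type gate 71 of 172 cells (41.3%) also held at least 2 UMIs of Aplnr and Kit, and 28 were under 2000 UMIs. With at most 1 such UMI allowed, 827 genes were higher and 737 lower. Among cells of 4000 to 16000 UMIs, 397 genes were higher and 431 lower. Epithelial genes summed to 373 CPM in Car4-type cells against 193 CPM in Dll4-low cells, where Hopx (219 against 39.2 CPM) made most of the difference and Krt8 had no UMI in either group. Without mice 2, 3, and 4 in turn, 89, 86, and 82 genes were higher and 231, 186, and 166 lower.

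Against non-endothelial cells, taken as the equally weighted mean of the epithelial, stromal, and immune sums, 2544 genes were higher (23.4% of those tested) and 2947 lower (27.1%), 50.6% in all. The median of all genes was -0.0992. Without TMM scaling the counts were 4008 higher and 1941 lower, so the higher share of the calls was 46.3% with and 67.4% without it, and the median moved by 0.34. The leading higher genes were Gpihbp1 (9.72), the sialomucin Emcn (9.53), Cyyr1 (9.48), Clec1a (9.44), Gpr182 (9.36), the receptor Tie1 (9.32), Clec14a (9.23), the phosphatase Ptprb (9.20), Arhgef15 (9.13), and Ccdc85a (9.01). These genes averaged 0.173 to 3.04 CPM over the 3 non-endothelial classes, against 167 to 2241 CPM in Dll4-low cells.

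The leading lower genes were Bicc1, Asph, Htra1, the Wnt receptor Fzd2, Itih4, the lipoprotein receptor Lrp1, Tmem132c, Rasl11b, Egfl6, and the collagen Col16a1. None had a UMI in Dll4-low cells, against 2534 (Rasl11b) to 10172 (Egfl6) UMIs in non-endothelial cells. Itih4 lost its call with the mouse as a block (adjusted p = 0.0523 by edgeR). Of 28 Notch genes 16 were higher, with Notch4 at 191, 247, and 191 CPM against 2.50, 3.07, and 3.57 CPM (5.83, SE 0.16, adjusted p = 2.64e-26 by edgeR), and 5 were lower. Of 34 transcription factors 27 were higher and 3 lower, and of 15 general capillary genes 14 were higher and 1 lower. Epithelial, stromal, and immune lists were lower in 10 of 11, 8 of 10, and 8 of 10 genes, and of 19 immediate early and heat shock genes 11 were lower and 2 higher.

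The remaining lists were counted in the same 4 comparisons with other ECs. For these counts the shares of all tested genes called higher and lower were 6.53% and 7.67% against arterial, 2.03% and 3.8% against venous, and 1.73% and 2.92% against Car4-type cells. Against Dll4-high cells they were 0.147% and 0.0737%, so a list without a call there was near the share of all genes. No gene of the Car4-type, immediate early, BMP, tip cell, transcription factor, basement membrane, vasoactive, MHC, leukocyte adhesion, solute carrier, sphingosine-1-phosphate, or capillary lipid list passed the test between Dll4-low and Dll4-high cells, which does not show that their levels were alike, and 1 of 14 coagulation genes (Entpd1), 1 of 17 VEGF and angiopoietin genes (Vegfc, higher), and 2 of 22 guidance genes (Sema3c higher, Efnb2 lower) did. Of 13 tip cell genes 5 were higher and 4 lower than in arterial cells, with Cxcr4 (-2.16) and Esm1 (-4.29) lower. Against venous cells 5 were higher and none lower, and none was higher and 2 were lower than in Car4-type cells. Of 21 capillary lipid genes 5, 3, and 0 were higher and 3, 2, and 1 lower than in arterial, venous, and Car4-type cells. The fatty acid carrier Fabp4 gave no usable level, since 272 of its 279 UMIs in Dll4-low cells came from 1 cell of mouse 3.

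Beside the same shares of all genes, of 22 guidance genes 5, 4, and 2 were higher and 7, 2, and 3 lower than in arterial, venous, and Car4-type cells. Of 17 VEGF and angiopoietin genes 3, 0, and 3 were higher and 5, 2, and 2 lower in the same order. Of 14 solute carriers 1, 2, and 1 were higher and 1, 2, and 0 lower, which against arterial cells (7.14% each way) was near the share of all genes (6.53% and 7.67%). Of 14 MHC genes only H2-Ab1 (2.50, higher than in arterial cells) and H2-T23 (-0.81, lower than in venous cells) passed the test in these 3 comparisons. Of 8 sphingosine-1-phosphate genes 2 were higher than in arterial cells, the transporter Spns2 (1.51) and Plpp1 (1.20), and Plpp3 was lower than in Car4-type cells (-0.81). Of 26 cell cycle genes 5 were higher than in arterial cells, among them Hmgb2 (1.89) and Stmn1 (1.67), and none passed the test against venous or Car4-type cells.

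**Figure D5:**
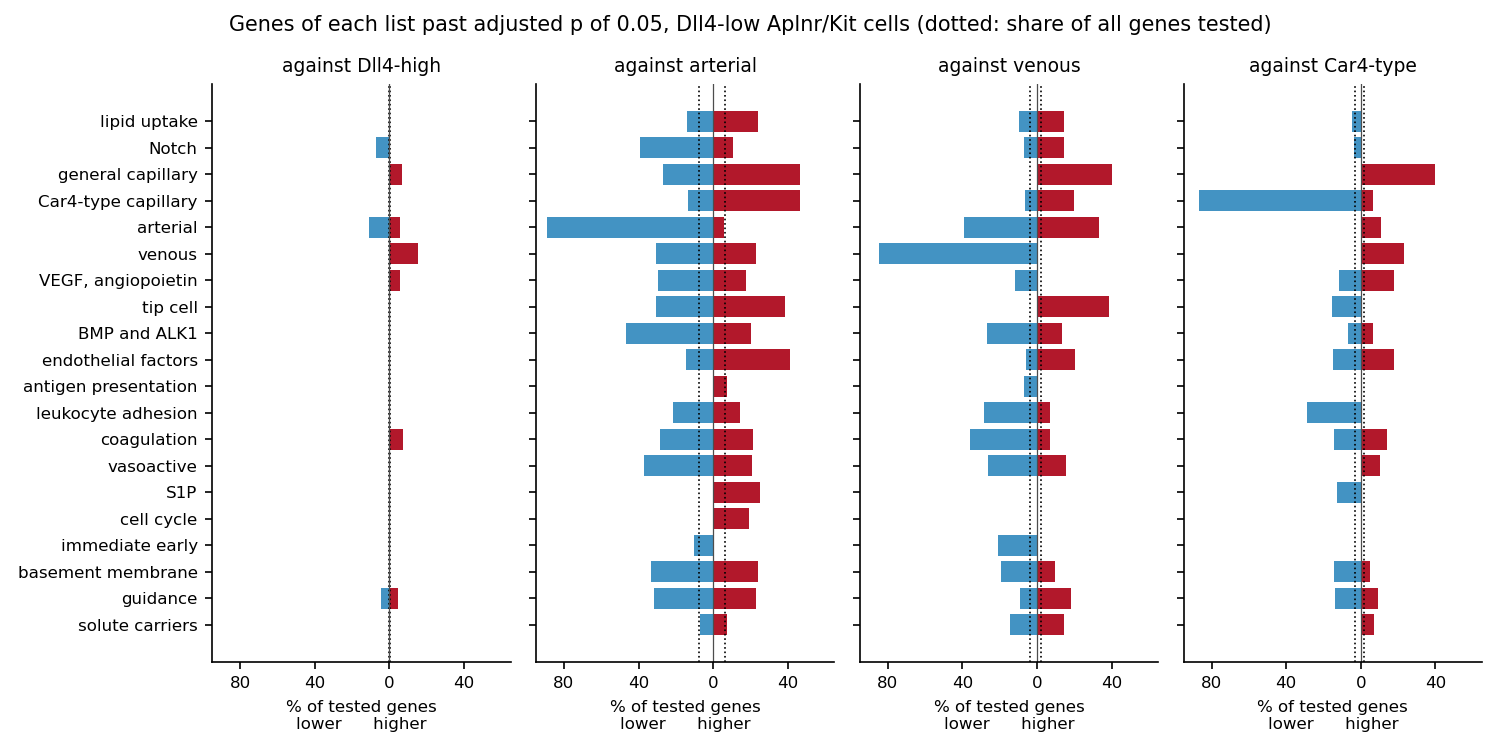
Percent of the tested genes of 20 gene lists called higher or lower in Dll4-low cells than in Dll4-high, arterial, venous, and Car4-type cells, with dotted lines at the share of all 10858 tested genes called. The arterial (88.9%), venous (84.6%), and Car4-type (86.7%) lists are lower than in the group of their own name, and few genes of any list pass the test against Dll4-high cells.

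The Dll4-low cells also varied among themselves. For 4465 genes the variance over cells of a mouse was divided by what the depth of the cells alone gives, and the median over genes was 1.10. The genes below were picked after these ratios were seen. The nuclear RNA Malat1 had ratios of 58.3, 55.1, and 64.3 in mice 2, 3, and 4. Mitochondrial RNAs, which also follow the state of a cell, were high as well, with mt-Atp6 at 26.5, 16.3, and 14.1 and mt-Co3 at 23.2, 14.3, and 13.2, and their part in the spread of other genes was not tested. Top2a reached 24.9, 25.6, and 20.4, with its UMIs in 13 of 231 cells, and Hmgb2 reached 21.1, 10.1, and 9.51, both genes of dividing cells. Cxcl12 reached 16.9, 10.0, and 8.74, with UMIs in 137 cells (59.3%). Scn7a (7.75, 14.1, and 8.58), Igfbp7 (6.39, 19.0, and 13.0), and Sema3c (5.84, 9.78, and 6.96) were also above most genes. The group therefore held cells that differed by more than depth alone gives in arterial Cxcl12, Scn7a, and Sema3c, in all 3 mice. At the same relative spread this ratio is larger for a more abundant gene. Scn7a had 33.2 and Sema3c 18.0 UMIs per cell, against 3.29 for Cxcl12, so the ratios do not rank the genes by relative spread. Car4 had UMIs in 47 cells (20.3%), and the tenth of cells richest in it held 78.6% of them.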

How the data were processed

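Lungs of 3 RA mice at P14 were profiled by 10x 3′ scRNA-Seq. The authors deposited raw UMI counts for each mouse as a matrix of 28692 features, made with Cell Ranger 3.0.2 on mm10 per the labels' processing notes. The annotation and strand setting of the counting are not given in the sources used here. The matrices held 9644 barcodes, of which 7642 passed the filter of 200 genes and 20% mitochondrial UMIs. The series' design text gives 5677 cells, and the filter behind that number is not given. Gene positions came from GENCODE M21 (GRCm38), in which 28339 feature IDs were found.

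The gates, gene lists, and members were chosen with earlier results of these data known. Counts were summed per mouse and group (at least 5 cells), filtered with filterByExpr, scaled by TMM, and tested with edgeR 4.0.16 (R 4.3.3) in 1 fit of 8 groups. The 17 gate genes were not tested. SEs were derived from the F statistic. The code was tested on simulated data. Named genes were the gate genes and markers, the 10 largest changes in each direction (adjusted p under 0.05, no overlap of mice, at least 50 CPM in the higher group, no predicted or mitochondrial gene), and up to 4 members per list. Some genes that met these rules are not reported here. Groups with no UMI of a gene were compared at a floor of 3 UMIs, and intervals cover counting error only.

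The sums of a mouse came from the same animal. Deviations from the group means of sums of the same mouse correlated at 0.0157 to 0.109 over 7470 genes, and the mouse was a block in an alternative fit. Doublets were left in. A doublet caller (Scanpy 1.11.5) marked 12, 14, and 23 cells, a share of 0.503%, 0.538%, and 0.866%, and an alternative removed 46, 54, and 56 cells, among them 1 Dll4-low cell. Of 12 barcodes found in 2 or more libraries, none was a Dll4-low cell. Alternatives changed the cell filters, gates, depth range, scaling, low-count filter, and tool (DESeq2 1.42.0), or left out a mouse.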

Additional observations from a re-analysis of the deposited data

How the results depend on the processing

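For the gene counts and the share of Dll4-low cells, 164 of 195 values under alternatives stayed within 1.5 times the reported count or 1 SD of the reported share, and 31 did not. For the single genes followed, 3349 of 3623 values kept direction and call, 271 kept the direction without the call, and 3 did not keep it. These 3 were Fos (6.64), Fosb (5.91), and Ncam1, whose value of 0 has no direction, once venous cells with at least 2 UMIs of Aplnr and Kit were removed, which left 7, 3, and 3 venous cells, of which only the 7 of mouse 2 met the minimum of 5 per sum. The same setting gave 130 lower genes against venous cells and 827 higher and 737 lower against Car4-type cells. Without TMM, 4008 genes were higher and 1941 lower than in non-endothelial cells. With cells of 4000 to 16000 UMIs, 397 genes were higher than in Car4-type cells and 23 lower than in Dll4-high cells. Against Dll4-high cells, at most 10% mitochondrial UMIs gave 8 higher and 4 lower genes with 200 or 500 genes per cell, DESeq2 gave 29 and 22, Dll4-low cells with 0 Dll4 UMIs gave 14 lower genes, and leaving out dividing cells, an alternative added after seeing the data, gave 6 and 13. The share of Dll4-low cells in the endothelial gate, 25.5% on average over the mice, was 15.6% with 0 Dll4 UMIs and 31.7% within 4000 to 16000 UMIs. The causes of these shifts were not tested.

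Leaving out each mouse in turn gave 2104 to 2387 higher and 2243 to 2648 lower genes against non-endothelial, 379 to 573 and 497 to 715 against arterial, 61 to 157 and 158 to 316 against venous, 82 to 89 and 166 to 231 against Car4-type, and 2 to 12 and 1 to 7 against Dll4-high cells, and shares of 23.7% to 27.6%. With the mouse as a replicate block the counts were 2548 and 2959, 695 and 822, 232 and 423, 211 and 321, and 24 and 8 in the same order. The block ended the calls of Itih4, Cxcr4 against venous cells, Fhl1, Ivns1abp, and Mgp against Car4-type cells, and changed no other call of a named gene. Of the 24 genes that differed from Dll4-high cells, leaving out mouse 2, 3, or 4 kept the calls of 7, 12, and 3. With 231 Dll4-low cells in 3 mice, genes under about 50 CPM rest on few UMIs, and a missed call there does not show that levels were alike.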
